A study of Rattus norvegicus with 120 samples.

Results

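Collagens are rope-like proteins of the extracellular matrix, wound from several alpha chains that each have a gene of their own. Fibrillar collagens, types I and III above all, form the tension-bearing fibrils that build up in scarred kidney and heart, whereas type IV collagen forms the sheets of basement membranes. In the filter of the mature glomerulus a type IV network that contains the alpha3 chain takes the place of the one made from alpha1 and alpha2. The genes described here are the 42 whose symbol in the deposited tables consists of Col, a number, the letter a and a number, out of 30560 genes. They were split by structure into 11 fibrillar collagens, 6 of basement membranes and 25 others. The type IV genes among them are Col4a1, Col4a2, Col4a3 and Col4a6. No gene carried the symbol Col4a4 or Col4a5, so these chains are missing from all counts and sums below.

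Poly-A RNA was sequenced from kidney and heart of ZSF1 rats aged 30 weeks, a cross of diabetic fatty and hypertensive strains in which obese animals lack a working leptin receptor. Study A held obese rats on BT2, obese rats on vehicle and lean rats on vehicle, and study B held obese rats on BT2 with empagliflozin (the combination), on empagliflozin alone and on vehicle. BT2 inhibits the kinase BDK, which restrains the breakdown of branched-chain amino acids. Empagliflozin inhibits SGLT2, the glucose transporter of the proximal tubule, and compounds were mixed into the chow. Each of the 12 groups of an organ and a treatment had 10 libraries, each from a rat of its own per the series text, and p-values measure the spread between these rats. Study B had no lean rats, so no treated group there can be set against lean animals of its own study, and the renal samples are labelled kidney although the series text names whole kidney and kidney cortex without saying which samples are which.

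Kidney libraries held 0.0228 to 54.9 M counts with a median of 10.1 M, and heart libraries held 6.74 to 23.6 M counts with a median of 12.2 M, M standing for 1000000. The 2 kidney libraries under 1000000 counts, BT2 replicate 2 and study B vehicle replicate 8, were left out of all levels and kept in the tests, so those groups have n = 9 for levels. Markers of the labelled organ were present: 5 kidney epithelial genes summed to between 3699 and 9095 CPM (counts per 1000000 counts, scaled between libraries) in lean kidneys and to between 0.654 and 203 CPM in lean hearts. The 203 CPM belong to lean heart replicate 8, and the other 9 lean hearts held at most 2.06 CPM. In 7 kidney and 11 heart libraries, called doubted below, heart muscle, skeletal muscle, albumin or atrial transcripts were high or the depth was low. Lean heart replicate 8 is not among them, and it was left out in an alternative of its own. Among them kidney lean replicate 8 stood apart in its collagens, with 24.1 CPM of Col15a1 against 4.84 to 7.19 CPM in the other 9 lean kidneys. It held 16749 CPM of 5 skeletal muscle markers and 3699 CPM of the epithelial markers, against at most 654 CPM and at least 7532 CPM in the other 9. It also held 7349 CPM of 6 cardiomyocyte markers, against at most 90.8 CPM in the other 9. The part of these transcripts in its collagen levels was not tested. Tests below use edgeR's quasi-likelihood test, with p-values adjusted over all genes of a comparison and a call at an adjusted p under 0.05. In whole tissue, fewer cells of a type and less RNA per cell cannot be told apart.

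Most collagens differed in level between kidney and heart of lean rats, as did most genes. Of 31 members tested, 18 were lower and 10 higher in lean kidney than in lean heart, where 81.0% of all 13952 genes tested were called, 39.9% being lower and 41.1% higher. The median log2 fold change of the members was -0.94, against 0.01 for all genes. Fibrillar collagens took less of the kidney's counts: the 11 genes summed to 233 ± 46.2 CPM in lean kidney and 708 ± 185 CPM in lean heart (SD, n = 10 each). Basement membrane collagens summed to between 484 and 722 CPM in lean kidneys and between 663 and 1150.5 CPM in lean hearts.

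**Figure D1:**
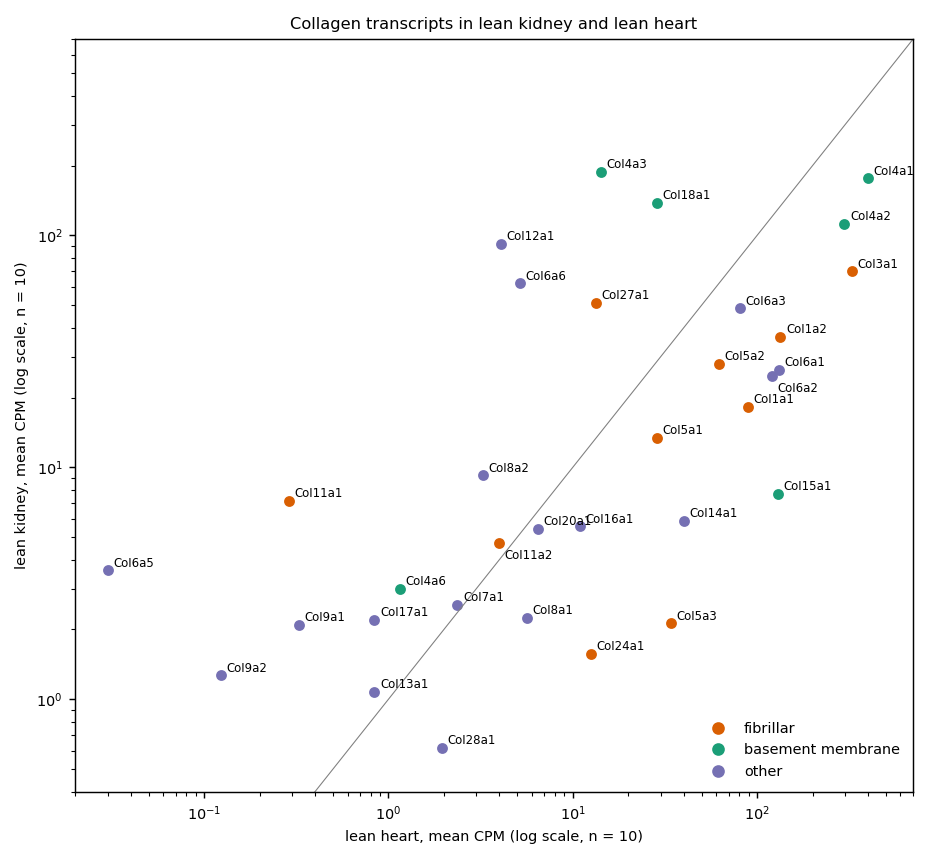
Mean CPM of each collagen gene in lean kidney (vertical axis) and lean heart (horizontal axis), both on log scales, 10 libraries each, for the genes that reach 1 CPM in either organ. Points above the line of equal level are higher in kidney, where Col4a3, Col12a1 and Col6a5 stand, and points below it are higher in heart, where Col15a1 and Col5a3 stand.

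The largest difference towards the heart was that of Col15a1, a basement membrane collagen of muscle and vessels. Its level lay between 4.84 and 24.1 CPM (median 5.78) in lean kidneys and between 99.2 and 174 CPM (median 122) in lean hearts. The ranges did not overlap, and the log2 fold change was -4.12 ± 0.27 (SE; adjusted p = 1.34e-11, edgeR's quasi-likelihood test). Col5a3, a chain of the type V collagen that regulates fibril width, followed with -3.95 ± 0.33, and Col24a1, a minor fibrillar collagen described in developing bone of mice, with -2.95 ± 0.34. Col1a1, the main chain of type I collagen, had a log2 fold change of -2.28 ± 0.20, and Col3a1, the single chain of type III collagen, one of -2.25 ± 0.19. The chains of type VI beaded filaments, Col6a1 and Col6a2, were at -2.33 ± 0.14 and -2.28 ± 0.14.

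Higher in lean kidney were Col6a5 (6.32 ± 0.42), Col11a1 (4.61 ± 0.28), Col12a1 (4.44 ± 0.18), Col4a3 (3.74 ± 0.23) and Col6a6 (3.58 ± 0.28), all as log2 fold changes ± SE. Col12a1, a collagen that decorates the surface of fibrils, lay between 71.0 and 107 CPM in lean kidneys and between 1.80 and 6.76 CPM in lean hearts. Col6a5, a long variant chain of type VI collagen, lay between 1.49 and 4.62 CPM in lean kidneys and had no count in 8 of 10 lean hearts, so its fold change rests on very few heart reads. Col4a3 lay between 95.9 and 221 CPM (median 196) in lean kidneys and between 8.07 and 28.9 CPM (median 11.2) in lean hearts, again without overlap. Lean heart replicate 8 held the 28.9 CPM, and without it the log2 fold change was 3.87 ± 0.21 and all 28 calls held. Col4a1 and Col4a2, chains of the other type IV network, went the other way, with log2 fold changes of -1.21 ± 0.11 for Col4a1 and -1.43 ± 0.11 for Col4a2. Col18a1, a heparan sulfate bearing collagen of basement membranes, was higher in kidney by 2.26 ± 0.15, with 103 to 164 CPM (median 141) in lean kidneys and 17.5 to 44.2 CPM (median 26.7) in lean hearts. Of the markers tested, 5 of 6 fibroblast, 5 of 6 pericyte and smooth muscle and 4 of 4 endothelial ones were lower in lean kidney, against 39.9% of all genes. With the doubted libraries left out, 5 fibroblast markers were lower and 1 was higher. The part of these cells in the result was not tested.

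Obese kidneys held more of most collagen transcripts than lean ones. Of 32 members tested in study A, 21 were higher and 2 lower in obese kidney, where 32.0% of all 14230 genes tested were called, 16.9% of all being higher and 15.2% lower. The median log2 fold change was 0.59 for the members and -0.02 for all genes. By class, 7 of 10 fibrillar, 5 of 6 basement membrane and 9 of 16 other members tested were higher. All 42 genes summed to 1618 ± 239.5 CPM in obese kidneys and 1156 ± 101 CPM in lean kidneys (SD, n = 10 each).

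Type I and type III collagen rose in obese kidney. Col1a1 lay between 28.4 and 65.9 CPM (median 38.7) in obese kidneys and between 11.3 and 36.9 CPM (median 16.4) in lean kidneys. All 10 obese kidneys were above the lean median, and the ranges overlapped only through lean replicate 8. The log2 fold change of Col1a1 (ENSRNOG00000003897) was 1.18 ± 0.21 (adjusted p = 0.000163, edgeR's quasi-likelihood test), and 1.40 ± 0.14 without that library. Col3a1 lay between 80.2 and 203 CPM (median 141) in obese kidneys and between 49.5 and 150.1 CPM (median 61.7) in lean kidneys, with a log2 fold change of 0.92 ± 0.21.

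The partner chains rose less or by a like amount. Col1a2, the other chain of type I collagen, was at 0.59 ± 0.15 on the log2 scale, Col5a1 and Col5a2 at 0.60 ± 0.12 and 0.83 ± 0.10, and Col11a1, a relative of type V, at 0.74 ± 0.11. The count of Col1a1 per count of Col1a2 had a median of 0.763 (0.656 to 0.967) in obese kidneys and 0.469 (0.388 to 0.705) in lean kidneys. Col24a1 had the highest fold change of all members, 2.06 ± 0.33, with 4.78 to 10.0 CPM in obese kidneys and 0.795 to 6.30 CPM in lean kidneys, where all but replicate 8 lay below the obese range. Without that replicate its fold change was 2.75 ± 0.16. Col5a3, Col11a2 and Col27a1 did not pass the test in obese kidney, at 0.16 ± 0.37, 0.02 ± 0.22 and -0.09 ± 0.12. Col5a3 passed without replicate 8, at 0.79 ± 0.17 (adjusted p = 0.000723, edgeR's quasi-likelihood test). That lean library held 8.39 CPM and the other lean kidneys 0.893 to 2.07 CPM.

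**Figure D2:**
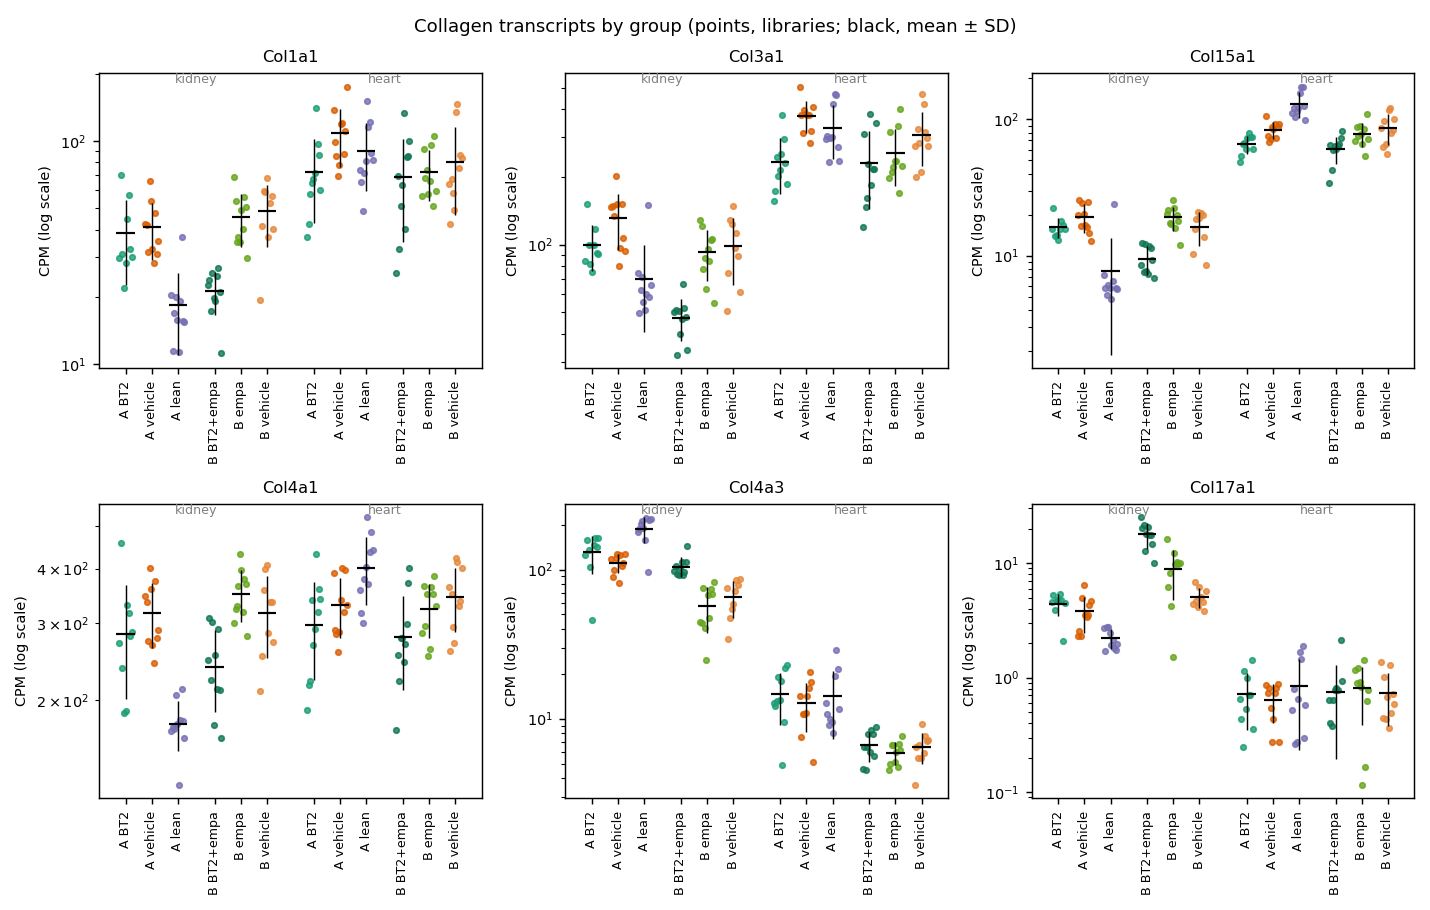
CPM (log scale) of 6 collagen genes in every library of the 12 groups, with group means and SDs, study A and study B apart and kidney left of heart. In kidney, obese vehicle rats of study A lie above lean rats for Col1a1, Col3a1, Col15a1, Col4a1 and Col17a1 and below them for Col4a3, and the combination group of study B lies below vehicle for the first 4 of these and above it for Col4a3 and Col17a1.

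Among basement membrane collagens, Col4a1 and Col4a2 separated obese from lean kidneys in every library. Their promoters are shown because these genes share one: they are transcribed away from each other, and in the RefSeq windows of build GRCr8, from 250 bases before to 50 after each start, the starts lie 77 bases apart. The windows are chr16:84885347-84885646 on the plus strand for Col4a1 and chr16:84885471-84885770 on the minus strand for Col4a2. Capitals mark the 176 bases that the windows share, one being the reverse complement of the other.
Col4a1: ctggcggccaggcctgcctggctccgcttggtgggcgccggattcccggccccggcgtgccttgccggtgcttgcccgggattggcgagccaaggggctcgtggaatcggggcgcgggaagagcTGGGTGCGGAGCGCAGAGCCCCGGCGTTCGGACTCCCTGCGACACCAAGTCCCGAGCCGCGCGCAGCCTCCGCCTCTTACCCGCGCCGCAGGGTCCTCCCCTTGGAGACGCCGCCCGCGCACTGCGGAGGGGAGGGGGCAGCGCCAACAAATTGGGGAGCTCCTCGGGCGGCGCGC
Col4a2: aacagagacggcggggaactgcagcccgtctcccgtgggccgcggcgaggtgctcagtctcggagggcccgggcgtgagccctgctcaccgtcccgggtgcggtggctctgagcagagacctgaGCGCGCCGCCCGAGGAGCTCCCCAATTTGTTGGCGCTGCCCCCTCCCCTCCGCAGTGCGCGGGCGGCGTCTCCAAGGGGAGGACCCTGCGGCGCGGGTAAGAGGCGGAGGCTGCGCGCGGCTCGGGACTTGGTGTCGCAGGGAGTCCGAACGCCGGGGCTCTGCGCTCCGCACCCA
Another window belongs to Col4a3, which moved in the opposite direction, at chr9:91323740-91324039 on the plus strand. Capitals mark its single match to the GC box GGGCGG.
Col4a3: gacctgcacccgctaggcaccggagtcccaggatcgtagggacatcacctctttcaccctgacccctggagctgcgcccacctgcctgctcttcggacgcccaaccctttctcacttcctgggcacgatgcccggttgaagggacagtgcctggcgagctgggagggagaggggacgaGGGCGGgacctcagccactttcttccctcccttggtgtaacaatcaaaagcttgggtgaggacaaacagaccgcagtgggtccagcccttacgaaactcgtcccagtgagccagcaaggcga
On either strand the Col4a1 window held 2 matches to GGGCGG and 2 to CCAAT, and the Col4a2 window held 2 and 1. GGGCGG occurred in 54.5% of the 33 member windows and 34.9% of all 27457 windows, CCAAT in 33.3% and 37.7%, and TATAAA in 12.1% and 14.3%. These are matches of letters in a window, and no binding was measured.

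Col4a1 lay between 243 and 401 CPM (median 312) in obese kidneys and between 128 and 212 CPM (median 175) in lean kidneys, and its log2 fold change was 0.89 ± 0.10 (adjusted p = 1.35e-06, edgeR's quasi-likelihood test). Col4a2 was at 0.79 ± 0.10. The count of Col4a1 per count of Col4a2 stayed within a narrow band, with medians of 1.67 in obese and 1.57 in lean kidneys and ranges of 1.44 to 1.82 and 1.42 to 1.70. Col4a3, the alpha3 chain whose loss causes Alport syndrome in humans, fell to between 81.7 and 128 CPM (median 114) in obese kidneys, against 95.9 to 221 CPM (median 196) in lean kidneys. All 10 obese kidneys were below the lean median, and lean replicate 8 alone lay within their range. Its log2 fold change was -0.72 ± 0.12 (adjusted p = 0.000112), so that the count of Col4a3 per count of Col4a1 had a median of 0.348 in obese and 1.12 in lean kidneys.

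Col15a1 lay between 12.9 and 25.8 CPM (median 18.4) in obese kidneys and between 4.84 and 24.1 CPM (median 5.78) in lean kidneys. Its log2 fold change of 1.35 ± 0.28 became 1.77 ± 0.12 without lean replicate 8, the only lean kidney within the obese range. Col18a1 was higher by 0.57 ± 0.14, with 128 to 274 CPM (median 190.4) in obese and 103 to 164 CPM (median 141) in lean kidneys, and these ranges overlapped. Col4a6, another type IV chain, was higher by 0.71 ± 0.12 at a level of 4.76 ± 0.874 CPM in obese and 3.00 ± 0.527 CPM in lean kidneys. Podocytes make the alpha3 network of the glomerulus, and 2 of 3 podocyte markers tested, Nphs1 and Podxl, were lower in obese kidney too. Nphs1, nephrin, averaged 26.4 ± 6.06 CPM in obese and 42.6 ± 8.93 CPM in lean kidneys (SD, n = 10 each). Podxl is no measure of podocytes alone, since it averaged 138 CPM in lean kidneys and 232 CPM in lean hearts. The part of these cells in the Col4a3 result was not tested.

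Of the other collagens, the type VI chains Col6a1, Col6a2 and Col6a3 rose in obese kidney: Col6a1 by a log2 fold change of 0.77 ± 0.16, Col6a2 by 0.56 ± 0.13 and Col6a3 by 0.78 ± 0.10. Col6a1 lay between 25.5 and 59.7 CPM (median 42.6) in obese and between 19.9 and 44.3 CPM (median 24.1) in lean kidneys, and the highest lean value was again that of replicate 8. Col8a1, a short-chain collagen that vascular cells deposit, was higher by 1.62 ± 0.28, with 3.60 to 10.7 CPM in obese and 1.18 to 6.21 CPM in lean kidneys. Col16a1, a fibril-associated collagen, was higher by 1.15 ± 0.18, the hemidesmosome collagen Col17a1 by 0.84 ± 0.18 and the anchoring fibril collagen Col7a1 by 0.77 ± 0.17. Col12a1 and Col6a6 were higher by 0.38 ± 0.13 and 0.27 ± 0.08.

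Col9a1, a fibril-associated collagen best known from cartilage, was the second member to fall. It lay between 0.390 and 0.709 CPM in obese kidneys and between 0.647 and 3.16 CPM in lean kidneys, with a log2 fold change of -1.84 ± 0.22 (adjusted p = 3.15e-06, edgeR's quasi-likelihood test). The ranges met only at lean replicate 8, and at these levels the counts are few. Col13a1, Col14a1, Col20a1, Col6a5, Col8a2 and Col9a2 did not pass the test, with fold changes between -0.23 and 0.22.

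**Figure D3:**
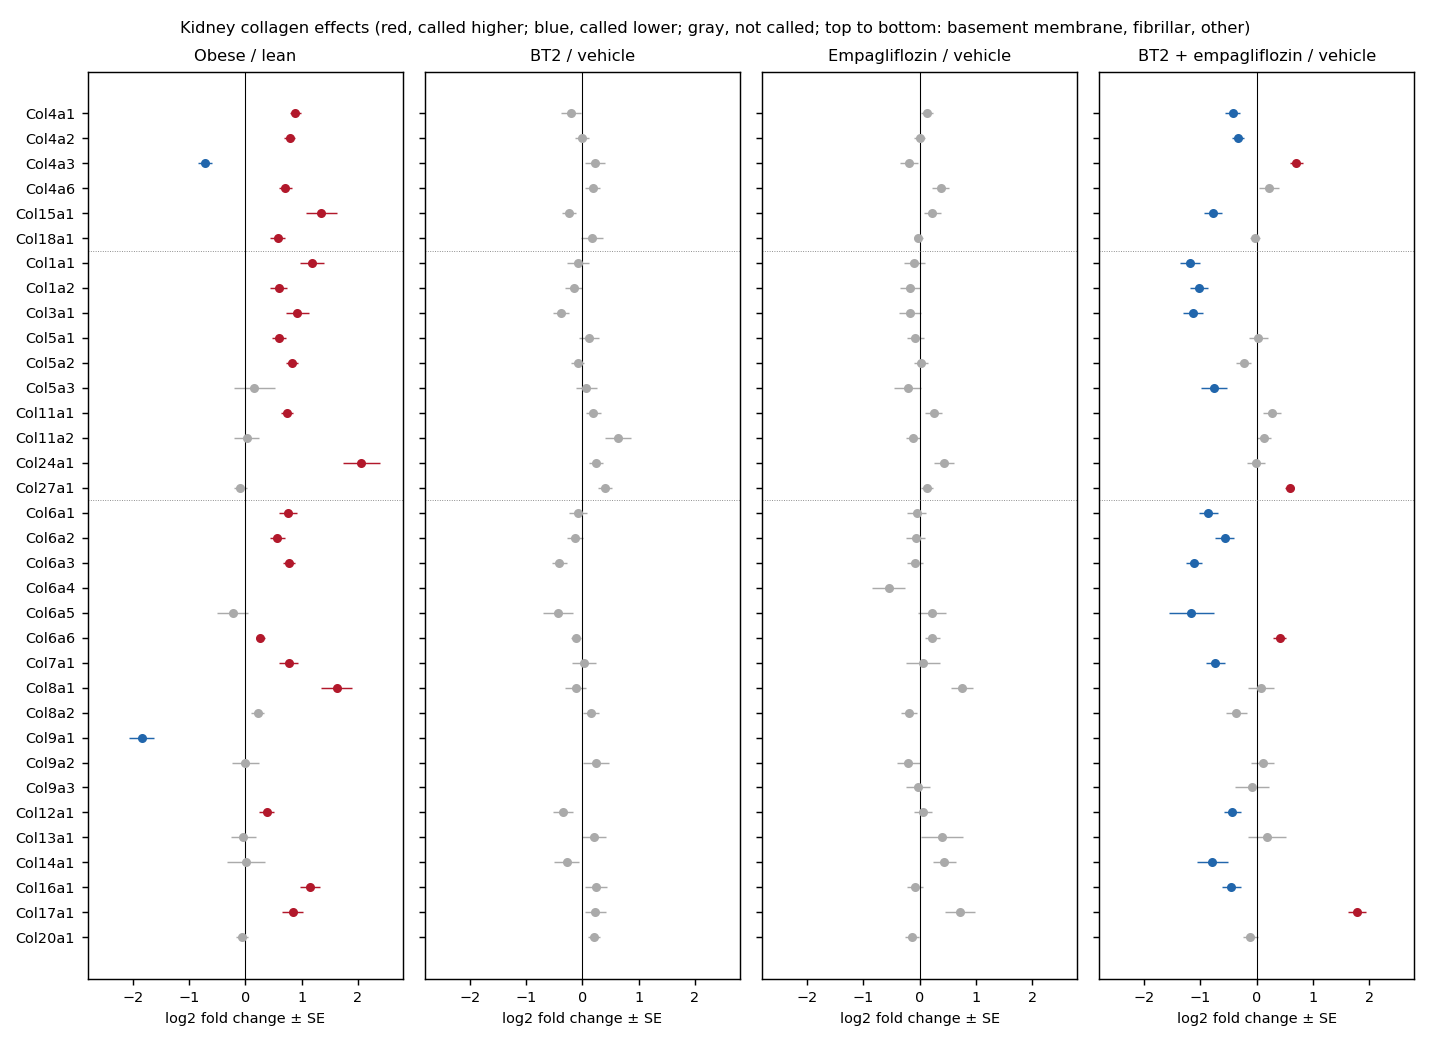
Log2 fold change ± SE of every collagen gene tested in kidney, for obese against lean rats and for BT2, empagliflozin and the combination against obese vehicle rats of the same study. Filled red and blue points are genes called higher and lower: 21 and 2 in obese kidney, 0 with BT2, 0 with empagliflozin and 4 and 15 with the combination.

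These counts rested unevenly on the sequencing plates. With replicates 1 to 5, on plate 1, 24 members were called between obese and lean kidneys, and with replicates 6 to 10, on plate 2, 8 were called. The calls over all genes were uneven too, with 4210 of 14294 genes tested on plate 1 and 976 of 14534 on plate 2. All 23 members kept their direction on each plate. For Col1a1 the log2 fold change was 1.55 ± 0.20 on plate 1 and 0.84 ± 0.29 on plate 2, which holds lean replicate 8. Without that library all 23 calls held and Col5a3 joined them.

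Markers of the cells that could hold collagen transcripts moved unevenly in obese kidney. By edgeR's quasi-likelihood test 0 of 6 fibroblast markers were called, with 2 at an unadjusted p under 0.05, and they summed to between 153 and 367 CPM in obese and between 224 and 394 CPM in lean kidneys. The 394 CPM belong to lean replicate 8, and the other 9 lean kidneys held 224 to 259 CPM. Without that library 2 of the 6 were called, Dcn and Postn, both higher in obese kidney. Of 6 pericyte and smooth muscle markers, Pdgfrb and Tagln were higher, at 0.51 ± 0.09 and 0.65 ± 0.12, and the 6 summed to between 186 and 255 CPM in obese and between 124 and 187 CPM in lean kidneys. Of 4 endothelial markers 3 were lower, and of 5 tubule markers 4 were lower. The part of these cells in the collagen result was not tested.

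With BT2 alone no collagen of the kidney passed the test. By edgeR's quasi-likelihood test 0 of 31 members tested passed, where 5.67% of all 14311 genes tested were called, 2.26% being higher and 3.41% lower. At an unadjusted p under 0.05 there were 4 members, against 3444 of all 14311 genes. The DESeq2 Wald test called 2 members, and 1357 of all genes. The test kept BT2 replicate 2, a library of 0.0228 M counts. With it left out, 1 of 32 members tested was called, and it was higher, where 1186 of all 14447 genes tested were called. Col1a1 lay between 21.8 and 70.2 CPM (median 31.2) in BT2 kidneys and between 28.4 and 65.9 CPM (median 38.7) in vehicle kidneys, a log2 fold change of -0.08 ± 0.19. The nearest to a call was Col27a1, a fibrillar collagen of cartilage, at 0.40 ± 0.12 (adjusted p = 0.0579), followed by Col6a3 at -0.41 ± 0.14 (adjusted p = 0.0780), for which all 9 BT2 kidneys lay below the vehicle median.

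Empagliflozin alone gave 0 calls among 33 members tested in kidney, where 1.06% of all 14059 genes tested were called. At an unadjusted p under 0.05 there were 5 members, against 2644 of all 14059 genes. The DESeq2 Wald test called 1 member, and 614 of all genes. Col8a1 came nearest, at 0.76 ± 0.20 (adjusted p = 0.0597, edgeR's quasi-likelihood test), with 3.54 to 5.52 CPM in empagliflozin kidneys and 0.977 to 4.12 CPM in vehicle kidneys. Col17a1 was at 0.72 ± 0.27, with a wide range of 1.51 to 16.1 CPM in empagliflozin kidneys against 3.83 to 6.81 CPM in vehicle kidneys. Col1a1 was at -0.09 ± 0.18 and Col3a1 at -0.17 ± 0.19.

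With BT2 and empagliflozin together, obese kidneys held less Col1a1, Col1a2 and Col3a1 than with vehicle. Of 32 members tested, 15 were lower and 4 higher than in study B vehicle kidneys, where 32.1% of all 14037 genes tested were called, 14.8% of all being lower and 17.3% higher. The median log2 fold change was -0.28 for the members and 0.01 for all genes. Against empagliflozin alone, 13 of 33 members tested were lower and 3 higher with the combination, where 31.7% of all 13992 genes were called, 14.8% being lower and 17.0% higher. These comparisons share the combination libraries, and all groups of study B share their controls with others, so their values are given side by side and do not support each other.

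Col1a1 lay between 11.2 and 26.9 CPM (median 21.9) in combination kidneys, between 29.8 and 69.1 CPM (median 44.6) in empagliflozin kidneys and between 19.4 and 68.4 CPM (median 52.9) in vehicle kidneys. The combination kidneys lay wholly below those on empagliflozin, and all 10 were below the vehicle median. The log2 fold change of the combination was -1.19 ± 0.17 against vehicle (adjusted p = 2e-05, edgeR's quasi-likelihood test) and -1.10 ± 0.15 against empagliflozin. Col1a2 was at -1.02 ± 0.16 and -0.85 ± 0.15, so that both chains of type I collagen fell.

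Col3a1 lay between 32.4 and 66.9 CPM (median 48.7) in combination kidneys, between 54.7 and 129 CPM (median 91.5) in empagliflozin kidneys and between 50.8 and 148 CPM (median 96.5) in vehicle kidneys, with -1.14 ± 0.18 against vehicle. Chains of types V and XI did not follow as a group. Col5a1, Col5a2, Col11a1 and Col24a1 did not pass the test against vehicle, at 0.03 ± 0.17, -0.23 ± 0.13, 0.27 ± 0.15 and -0.01 ± 0.16, whereas Col5a3 fell by 0.76 on the log2 scale (SE 0.23). Col27a1 rose, at 0.58 ± 0.08, with all 10 combination kidneys above the vehicle median. The fibrillar sum was 256 ± 31.9 CPM in combination kidneys (n = 10) and 339 ± 77.2 CPM in vehicle kidneys (SD, n = 9).

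**Figure D4:**
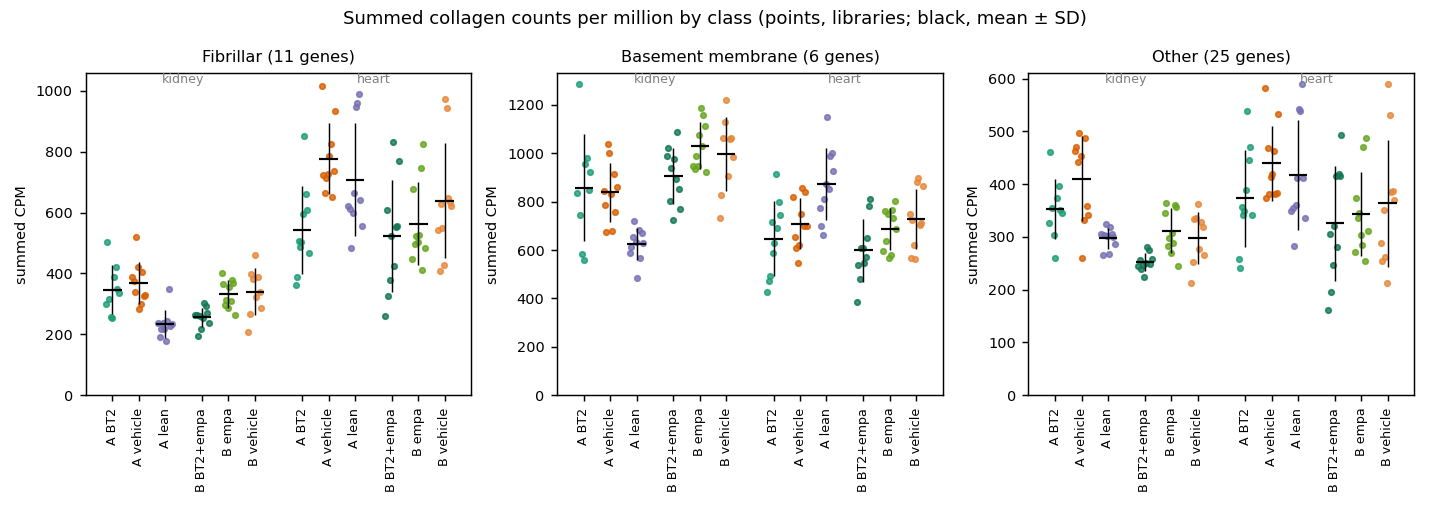
Summed CPM of fibrillar, basement membrane and other collagens in every library, with group means and SDs, study A and study B apart and kidney left of heart. In kidney, the fibrillar sum averaged 369 CPM in obese and 233 CPM in lean rats of study A, and 256 CPM with the combination and 339 CPM with vehicle in study B.

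Of the type VI chains, Col6a1, Col6a2, Col6a3 and Col6a5 fell with the combination. Col6a3 lay between 16.0 and 29.9 CPM in combination kidneys, 30.8 and 62.6 CPM in empagliflozin kidneys and 31.9 and 64.1 CPM in vehicle kidneys. The combination range lay below both others, and its log2 fold change against vehicle was -1.11 ± 0.14 (adjusted p = 2.39e-06, edgeR's quasi-likelihood test). Col6a1 lay between 13.4 and 29.8 CPM (median 20.0) in combination kidneys and between 21.2 and 52.3 CPM (median 34.6) in vehicle kidneys, at -0.86 ± 0.16, and Col6a2 was at -0.57 ± 0.17. Col6a5 was at -1.16 ± 0.40, with 0 to 2.06 CPM in combination kidneys, a range that holds the whole vehicle range of 0.993 to 1.85 CPM. Its call was lost on plate 1 alone and on plate 2 alone.

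Fibril-associated and anchoring collagens were also lower with the combination: Col14a1 at -0.79 ± 0.28, Col7a1 at -0.74 ± 0.17, Col16a1 at -0.46 ± 0.17 and Col12a1 at -0.43 ± 0.15 on the log2 scale. Col14a1 was lost without combination replicate 1, Col12a1 without combination replicate 4, Col16a1 and Col12a1 without combination replicate 5, and all 3 without vehicle replicate 8. The libraries doubted here were combination replicates 1, 4 and 5, with 94.2, 261 and 804 CPM of Alb (albumin) against at most 25.9 CPM in the other 7, and combination replicate 7, with 258 CPM of Actc1 (cardiac actin). The last, vehicle replicate 8, was doubted for its depth of 0.776 M counts. Without all 5 libraries 14 members and 3565 of all 14383 genes tested were called, and Col6a2, Col4a1 and Col4a2 lost their calls as well.

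Basement membrane collagens split under the combination. Col4a1 lay between 164 and 308 CPM (median 234) in combination kidneys and between 209.9 and 408 CPM (median 335) in vehicle kidneys, at -0.43 ± 0.13, and Col4a2 was at -0.33 ± 0.11. Col15a1 lay between 6.80 and 12.4 CPM (median 8.88) in combination kidneys, 11.9 and 25.8 CPM (median 19.1) in empagliflozin kidneys and 8.47 and 21.0 CPM (median 18.7) in vehicle kidneys. All 10 combination kidneys were below the medians of both other groups, and the log2 fold change was -0.78 ± 0.16 against vehicle and -0.99 ± 0.13 against empagliflozin.

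Col4a3 went the other way. It lay between 92.2 and 144 CPM (median 99.4) in combination kidneys, between 24.8 and 82.7 CPM (median 57.3) in empagliflozin kidneys and between 34.3 and 86.7 CPM (median 71.6) in vehicle kidneys. The combination kidneys did not overlap either of the other groups, and the log2 fold change was 0.70 ± 0.11 against vehicle (adjusted p = 5.81e-05, edgeR's quasi-likelihood test) and 0.89 ± 0.14 against empagliflozin. By edgeR's quasi-likelihood test 0 of 3 podocyte markers were called here, with 0 at an unadjusted p under 0.05. Nphs1 averaged 6.95 ± 4.41 CPM in combination kidneys (n = 10) and 6.59 ± 3.19 CPM in vehicle kidneys (SD, n = 9). Col18a1 differed by -0.03 ± 0.10, with 285 to 432 CPM (median 343) in combination kidneys and 270.1 to 433 CPM (median 359) in vehicle kidneys.

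Col17a1, a membrane-spanning collagen that anchors epithelia through hemidesmosomes, showed the highest rise with the combination. It lay between 10.1 and 25.3 CPM in combination kidneys, 1.51 and 16.1 CPM in empagliflozin kidneys and 3.83 and 6.81 CPM in vehicle kidneys. Combination and vehicle kidneys did not overlap, and the log2 fold change was 1.78 ± 0.16 (adjusted p = 2.66e-08, edgeR's quasi-likelihood test). Col6a6 was higher too, at 0.41 ± 0.12.

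Within plates the combination effect on kidney kept its direction in all 19 called members, with 13 members called on plate 1 and 10 on plate 2. Of all genes tested, 2480 of 14181 were called on plate 1 and 1754 of 14093 on plate 2. Col1a1 was at -1.18 ± 0.26 on plate 1 and -1.22 ± 0.20 on plate 2, and Col4a3 at 0.86 ± 0.16 and 0.52 ± 0.13. Of the pericyte and smooth muscle markers, 4 of 6 were lower with the combination, Tagln, Pdgfrb, Acta2 and Cnn1, with Tagln at -0.78 ± 0.11. They summed to between 87.2 and 154 CPM in combination kidneys and between 148 and 238 CPM in vehicle kidneys. Of 5 fibroblast markers tested 3 were lower, Postn, Dpt and Dcn, and the 6 found summed to between 121 and 159 CPM in combination and between 105 and 211 CPM in vehicle kidneys. With the doubted libraries left out, Dpt, Dcn and Cnn1 lost their calls, whereas Postn, Tagln, Pdgfrb and Acta2 kept theirs. Their part in the collagen result was not tested.

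The obesity contrast of study A and the combination contrast of study B share no library, and 31 members were tested in both. Of the 21 members higher in obese kidney, 12 were lower with the combination, which is 57.1%. The same share over all genes higher in obese kidney was 46.0%, 1079 of 2348. Of the 15 members lower with the combination, 12 had been higher in obese kidney, which is 80.0%, against 52.7% of all genes lower with the combination. These 12 were Col1a1, Col1a2, Col3a1, Col4a1, Col4a2, Col6a1, Col6a2, Col6a3, Col7a1, Col12a1, Col15a1 and Col16a1. Col4a3 was lower in obese kidney and higher with the combination, and Col17a1 and Col6a6 were higher in both. Effects had opposite signs in 71.0% of members and 69.1% of all genes, so the opposition was near that of the whole transcriptome. Without the doubted libraries 8 of 22 members higher in obese kidney were lower with the combination, 36.4%, against 35.3% of all genes.

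Few collagens were called in hearts, as were few genes. In obese against lean hearts, 1 of 27 members tested was called, where 5.36% of all 12694 genes tested were called, 3.32% being higher and 2.03% lower. This was Col15a1, which lay between 68.0 and 106 CPM (median 86.1) in obese hearts and between 99.2 and 174 CPM (median 122) in lean hearts, with all 10 obese hearts below the lean median. Its log2 fold change was -0.60 ± 0.10 (adjusted p = 0.00053, edgeR's quasi-likelihood test), opposite in sign to kidney. Col1a1 lay between 69.6 and 175 CPM (median 104) in obese hearts and between 48.6 and 150.2 CPM (median 81.5) in lean hearts, at 0.32 ± 0.14, and did not pass the test. Col4a1 was at -0.26 ± 0.09 and Col3a1 at 0.22 ± 0.13, also without a call. By edgeR's quasi-likelihood test 8 of 27 members were at an unadjusted p under 0.05, against 2258 of all 12694 genes. The 4 endothelial markers summed to 706 ± 73.5 CPM in obese and 834 ± 99.7 CPM in lean hearts, and the 4 atrial markers to 2103 ± 1384 CPM in obese and 859.9 ± 398 CPM in lean hearts (SD, n = 10 each). Their part in the Col15a1 result was not tested, and without lean replicate 8 Col15a1 was at -0.57 ± 0.10 and still called.

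With BT2, 1 of 26 members tested was called in heart, where 0.0558% of all 12545 genes tested were called, 7 genes in all, 0.0239% being higher and 0.0319% lower. Col3a1 lay between 157 and 378 CPM (median 223) in BT2 hearts and between 282 and 505 CPM (median 377) in vehicle hearts, with 9 of 10 BT2 hearts below the vehicle median. Its log2 fold change was -0.69 ± 0.13 (adjusted p = 0.0443, edgeR's quasi-likelihood test). The call was lost when either vehicle replicate 10 or BT2 replicate 4 was left out, and without a plate term. Col1a2 at -0.55 ± 0.11 and Col1a1 at -0.61 ± 0.16 did not pass the test. By edgeR's quasi-likelihood test 11 of 26 members were at an unadjusted p under 0.05, against 986 of all 12545 genes. The median log2 fold change was -0.21 for the members and 0.01 for all genes. The 6 fibroblast markers summed to 498 ± 89.0 CPM in BT2 hearts and 668 ± 109 CPM in vehicle hearts (SD, n = 10 each), and their part in the result was not tested.

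With the combination, 2 of 26 members tested were called in heart, where 5.13% of all 12117 genes tested were called. Col15a1 lay between 34.4 and 82.0 CPM (median 63.9) in combination hearts and between 56.1 and 121 CPM (median 85.0) in vehicle hearts, at -0.49 ± 0.12. Col14a1, which binds the surface of fibrils, lay between 19.1 and 41.4 CPM in combination hearts and between 28.0 and 75.1 CPM in vehicle hearts, at -0.62 ± 0.15. On plate 1 alone, on plate 2 alone and without the doubted libraries, neither was called. By edgeR's quasi-likelihood test 10 of 26 members were at an unadjusted p under 0.05, against 2348 of all 12117 genes. With empagliflozin 0 of 26 members passed edgeR's quasi-likelihood test, where 0.107% of all genes were called (0.0822% higher and 0.0247% lower), with 1 member at an unadjusted p under 0.05 and 0 by the DESeq2 Wald test. Between combination and empagliflozin hearts 0 of 26 passed, where 0.0249% of all genes were called. At an unadjusted p under 0.05 there were 3 members, and the DESeq2 Wald test called 0. Over all genes, edgeR's quasi-likelihood test gave an unadjusted p under 0.05 for 1121 of 12167 with empagliflozin. Between combination and empagliflozin hearts it did so for 980 of 12049. Atrial transcripts varied widely between these hearts: 4 atrial markers summed to between 827 and 5096 CPM in combination hearts and between 455 and 19579 CPM in vehicle hearts, and their part was not tested.

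The obesity effect differed between the organs for 12 of 35 members tested as an interaction, where 14.0% of all 14926 genes tested were called, 7.64% with a higher and 6.41% with a lower effect in kidney. The effect was higher in kidney for 11 of these, led by Col24a1 (kidney minus heart 2.42 ± 0.35) and Col15a1 (1.94 ± 0.29), and lower for Col9a1. Col4a1 and Col4a2 were among them at 1.13 ± 0.13 and 1.02 ± 0.14, as was Col1a1 at 0.86 ± 0.25. Without the doubted libraries 16 members and 2519 of all 14978 genes tested were called. On plate 2 alone it was 2 members and 86 of all 15040 genes. With heart lean replicate 8 left out, 11 members and 1841 of all 14999 genes were called. Col6a1 and Col17a1 then lost their calls, at 0.59 ± 0.21 and 1.02 ± 0.38. The combination effect differed between the organs for 10 of 33 members tested, where 16.2% of all 14692 genes were called, 7.91% with a higher and 8.30% with a lower effect in kidney. It was lower in kidney for Col1a1, Col1a2, Col3a1, Col6a1, Col6a3 and Col7a1 and higher for Col17a1, Col4a3, Col4a6 and Col6a6. On plate 2 alone 0 members passed the test, where 396 of all 14776 genes were called. Without the doubted libraries 1127 of all 14886 genes were called. Of the 10 members only Col17a1 and Col7a1 then passed, at 2.02 ± 0.40 and -1.55 ± 0.39. Heart levels of these were low: Col17a1 averaged 0.748 ± 0.555 CPM in combination hearts and 0.739 ± 0.363 CPM in vehicle hearts (SD, n = 10 each). Col7a1 averaged 2.99 ± 1.49 CPM in combination hearts and 2.10 ± 1.38 CPM in vehicle hearts, and Col4a6 averaged 0.910 ± 0.793 CPM in combination hearts and 1.97 ± 1.90 CPM in vehicle hearts.

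**Figure D5:**
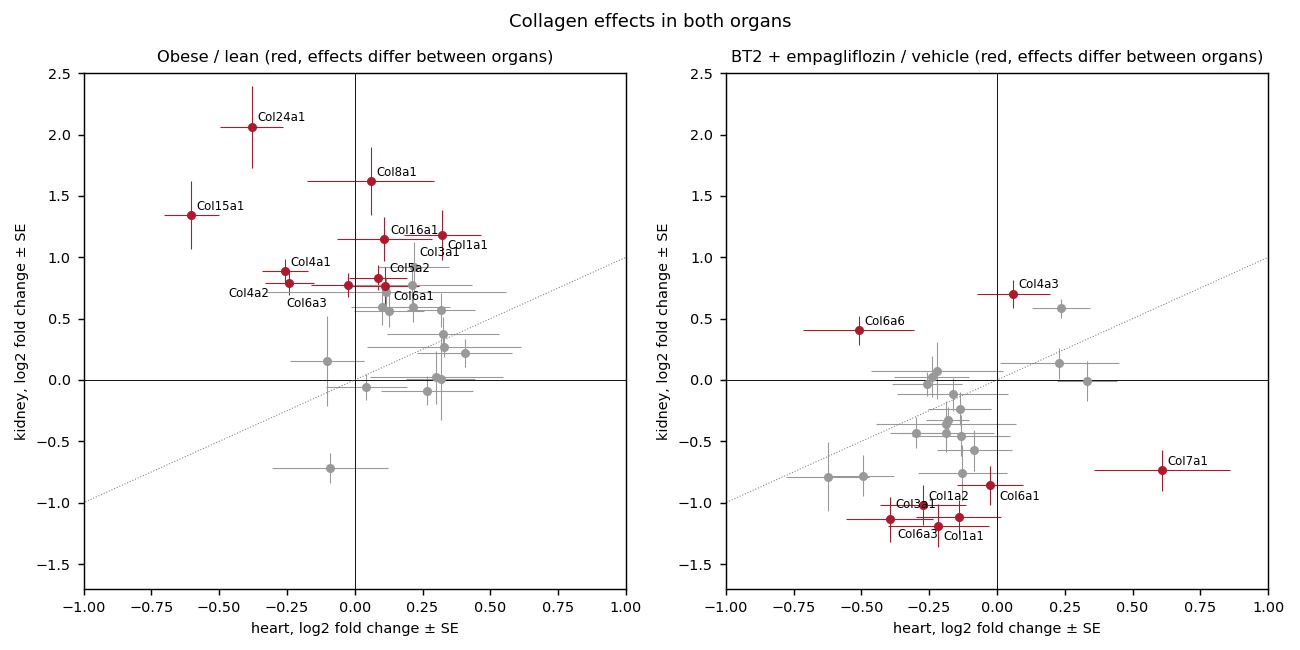
Log2 fold change ± SE in kidney (vertical axis) against heart (horizontal axis) for members tested in both organs, obese against lean on the left and combination against vehicle on the right, with red for effects that differ between organs. Most obesity effects lie above the dotted line of equal effect, with Col24a1, Col15a1 and Col8a1 farthest from it.

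Genes that make, bind and remove collagen, or inhibit its removal, were read from 6 lists, against 16.9% of all genes higher and 15.2% lower in obese kidney. In obese kidney, 7 of 21 genes for procollagen folding and modification were higher and 3 lower, among them P3h3, which belongs to the prolyl 3-hydroxylase family, at 0.81 ± 0.08. Crosslinking enzymes were higher in 4 of 6 cases, Loxl2 (1.07 ± 0.14), Loxl1 (0.93 ± 0.13), Lox (1.16 ± 0.27) and Loxl3 (0.61 ± 0.18), and none was lower. Proteins that bind fibrils were higher in 5 of 10 cases, with Fn1, fibronectin, at 205 ± 53.9 CPM in obese and 76.3 ± 13.2 CPM in lean kidneys. Timp1, an inhibitor of collagen-cleaving enzymes, was at 1.81 ± 0.18. It led the list that pools breakdown genes with such inhibitors, in which 5 of 9 genes were higher and 2 lower. Of 8 genes for propeptide removal 3 were higher and 2 lower, and of 7 collagen receptors 4 were higher. With lean replicate 8 left out, 9 of 10 proteins that bind fibrils were higher, and of 21 folding genes 9 were higher and 4 lower. The other lists kept their counts. Of all 14240 genes tested in that setting, 2792 were higher and 2631 lower.

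With the combination, 14.8% of all genes were lower and 17.3% higher in kidney. Of 21 folding genes 8 were lower and 4 higher, with Serpinh1, the collagen chaperone HSP47, at -0.59 ± 0.09. Crosslinking enzymes were lower in 3 of 5 cases, Tgm2, Loxl2 and Loxl1, with Loxl2 at 11.6 ± 2.63 CPM in combination kidneys and 24.2 ± 5.26 CPM in vehicle kidneys. Fibril partners were lower in 5 of 9 cases and higher in 1. The list of breakdown genes and inhibitors was lower in 5 of 9, including the inhibitor Timp1 at -1.15 ± 0.14 and Mmp2 at -1.07 ± 0.19. Propeptide removal gave 3 higher and 3 lower of 7, and 0 of 6 receptors were called by edgeR's quasi-likelihood test, with 1 at an unadjusted p under 0.05. With the doubted libraries left out, 4 folding genes were lower and 4 higher, and 3 fibril partners were lower and 1 higher. In the list of breakdown genes and inhibitors 3 were lower, and 3 crosslinking enzymes stayed lower. Of all 14383 genes tested in that setting, 1632 were lower and 1933 higher.

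Several members were barely present. Col2a1, Col10a1, Col22a1, Col23a1, Col25a1 and Col26a1 passed the filter on low counts in no comparison, and their group means stayed at or under 0.544 CPM. Col6a4, Col9a1, Col9a3, Col19a1 and Col28a1 passed it in some comparisons. 
In the authors' deposited tables, 23 members were higher and 2 lower in obese kidney and 4 higher and 16 lower with the combination, at an adjusted p under 0.05. For BT2 and empagliflozin in kidney the authors' deposited tables list 1 higher and 1 lower, and 1 higher and 0 lower. In heart the authors' deposited tables list 0 higher in any contrast and 3 lower in obese rats, 5 with BT2, 0 with empagliflozin and 3 with the combination. The sample sets differ: the kidney tables of the authors hold no column of lean replicate 8, of BT2 replicate 2 or of study B vehicle replicate 8, libraries that the tests above kept.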

How the data were processed

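Poly-A RNA of kidney and heart was sequenced as stranded libraries, per the labels' protocols. Per the submitters' processing notes the build was mRatBN7.2, and the tools named there include Salmon 1.5.2 and STAR 2.7.3a. The authors deposited estimated counts per gene, of which 6.61% were not whole, without normalization. The authors' deposited tables also hold counts scaled between libraries (signal), log2 fold changes and p-values. Those scaled values were used only to check which runs had been added, and 56 of 56 such columns matched the added runs up to a constant factor.

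For this report the repeat runs of 43 libraries were summed and rounded to whole counts, from 163 columns, and 82 further columns of per-sample values were not used. Levels are CPM after TMM scaling over all 120 libraries. Tests used edgeR 4.0.16 (R 4.3.3): filterByExpr, TMM, a quasi-likelihood F test with plate as covariate, and Benjamini-Hochberg adjustment over all genes tested, with calls at an adjusted p under 0.05. DESeq2 1.42.0, other scaling, no filter, no plate term, a replicate block, each plate alone, original runs alone and left-out libraries were tried as alternatives. The scripts were tested on simulated data. Same-numbered samples were not treated as pairs. In any comparison at most 5 of 10 such pairs correlated above 0.1, which cannot decide whether samples were paired. Tests between organs treated kidney and heart libraries as independent. Means, SDs and ranges leave out 2 kidney libraries under 1000000 counts. Few counts limit precision for members under 1 CPM.

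Ranges are given for Col1a1, Col3a1, Col4a1, Col4a3, Col6a1, Col15a1 and Col18a1, and for up to 3 called members with the highest and 3 with the lowest fold change in a comparison among those of at least 1 CPM. Up to 4 called genes of each other list were named, by smallest adjusted p. Ranges of further members were added after their values were seen. The members and lists were chosen with earlier results of these data known. Promoter windows came from RefSeq, build GRCr8, for 33 of 42 members.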

Additional observations from a re-analysis of the deposited data

Results flagged for a closer look

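Kidney lean vehicle replicate 8 lay far from the other 9 lean kidneys for 5 of the 7 collagens and 1 of the 3 class sums looked at. It held 36.9 CPM of Col1a1 (others 11.3 to 20.4), 150.1 CPM of Col3a1 (others 49.5 to 74.8), 44.3 CPM of Col6a1 (others 19.9 to 28.3) and 24.1 CPM of Col15a1 (others 4.84 to 7.19). Among members not looked at in this way it held 8.39 CPM of Col5a3 (others 0.893 to 2.07) and 6.21 CPM of Col8a1 (others 1.18 to 2.65). Its fibrillar sum was 349.5 CPM (others 177 to 244), and its Col4a3 was low at 95.9 CPM (others 158 to 221). Kidney combination replicate 10 held 144 CPM of Col4a3 (others 92.2 to 113), and heart study B vehicle replicate 7 held 58.7 CPM of Col18a1 (others 17.1 to 36.4). Chance alone marks about 1 in 20 groups, and 8 of 120 were marked here.

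The obesity effect differed between the organs, as kidney minus heart on the log2 scale with edgeR's quasi-likelihood test, for Col24a1 (2.42), Col15a1 (1.94), Col8a1 (1.55), Col17a1 (1.17), Col4a1 (1.13), Col16a1 (1.03), Col4a2 (1.02), Col1a1 (0.86), Col6a3 (0.79), Col5a2 (0.74), Col6a1 (0.65) and Col9a1 (-1.93). The combination effect differed for Col17a1 (1.74), Col4a6 (1.40), Col6a6 (0.89), Col4a3 (0.63), Col3a1 (-0.76), Col1a2 (-0.76), Col6a1 (-0.84), Col1a1 (-0.98), Col6a3 (-0.98) and Col7a1 (-1.35). Heart levels of Col17a1 averaged under 1 CPM in every group.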

How the results depend on the processing

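Over all genes the number called changed with the setting, for example from 4560 in obese against lean kidney to 976 on plate 2 alone. Of the counts of called members under the alternatives, 135 stayed within 1.5 times the reported count and 28 did not, and the cause was not tested. On plate 2 alone the counts were 8 for obese against lean kidney, 10 and 9 for the combination against vehicle and empagliflozin in kidney, 0 for obesity, BT2 and the combination against vehicle in heart, and 2 and 0 for the obesity and combination effects between organs. On plate 1 alone they were 4 for obesity, 1 for empagliflozin and 0 for the combination against vehicle in heart, and 4 for the combination effect between organs. The DESeq2 Wald test called 2 with BT2 and 1 with empagliflozin in kidney, and 3 for obesity and 5 for BT2 in heart, where DESeq2 size factors gave 2 for obesity. Without a plate term the counts were 0 for BT2 and 0 for the combination in heart and 5 for the combination effect between organs. Without the doubted libraries, chosen with earlier results of these data known, they were 1 for BT2 in kidney, 0 for BT2 and 0 for the combination in heart, and 2 for the combination effect between organs. Leaving out single doubted libraries, or lean heart replicate 8, alternatives chosen after seeing the data, gave 0 for BT2 in heart, 16 to 19 for the combination against vehicle and against empagliflozin in kidney, 11 to 17 for the obesity and 8 to 9 for the combination effect between organs.

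Same-numbered samples were not treated as pairs. Their correlations were not set against those of differently numbered samples, so they cannot decide whether any samples were paired. With the replicate block the counts were 22 for obese against lean kidney, 15 and 19 for the combination against vehicle and empagliflozin in kidney, 28 for lean kidney against lean heart, 13 and 9 for the effects between organs, and 0 for BT2 and 0 for the combination in heart.

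The sign turned only in effects that had passed no test. In kidney these were, with BT2 on plate 2, Col6a1 at 0.07 and Col1a1 at 0.14. With empagliflozin Col18a1 was at 0.04 on plate 2 and 0.00 without the doubted libraries, where Col6a1 was at 0.01. With the combination Col18a1 ranged from -0.09 to 0.00 against vehicle and from -0.05 to 0.02 against empagliflozin over single libraries left out, and against empagliflozin was at 0.00 without a filter and 0.04 on plate 1 and with original runs. In heart, obesity gave Col6a1 -0.14 and Col3a1 -0.06 on plate 2 and Col4a3 0.09 on plate 1 and 0.03 without the doubted libraries and, separately, 0.03 without lean replicate 8, and BT2 gave Col6a1 0.09 on plate 2. With empagliflozin, Col6a1 was at -0.05 without a plate term, 0.00 with the block, -0.36 on plate 2, -0.06 without the doubted libraries and -0.06 to 0.08 over single libraries left out, while on plate 1 Col18a1, Col1a1 and Col15a1 were at 0.24, 0.29 and 0.10. With the combination against vehicle Col6a1 was at 0.04 with original runs and -0.06 to 0.01 over single libraries left out. Against empagliflozin Col6a1 was at 0.03 without a plate term and with original runs and 0.32 on plate 2, where Col18a1, Col3a1 and Col1a1 were at 0.11, 0.01 and 0.27.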
